A study of Mus musculus with 9 samples.

Results

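The genes described here are the 3 MYC family transcription factors, the 3 D cyclins, the 2 kinases those cyclins activate and 2 inhibitors of cyclin-dependent kinases, 10 of the 24930 gene symbols in the expression table of this series. They were chosen by symbol: Myc, Mycn, Mycl1 (listed under its current symbol Mycl), Ccnd1, Ccnd2, Ccnd3, Cdk4, Cdk6, Cdkn1a and Cdkn1b. All 10 passed the filter on low values, at least 1 FPKM in at least 3 libraries, as did 12097 genes in all. FPKM counts fragments per kilobase of transcript, so levels of different genes can be set side by side. The median ratio of a library to the geometric mean of all was the same, 1.00276, in every library over 15138 genes, so the deposited values are on a scale with equal median ratios and not with equal totals.

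RNA came from mouse intestinal epithelium, which the series' design text calls primary crypt epithelium, on days 8, 9 and 10 after induction of a mutant β-catenin allele. There were 9 libraries: 3 controls, 3 mutant libraries titled as heterozygous for the β-catenin allele (set A) and 3 titled as heterozygous for Cdx2 and for the β-catenin allele (set B), with 1 library of each group on each day. The library names disagree with the titles. There, CDX2HET and EXON3 stand on the libraries of set A, and those of set B have EXON3 without CDX2HET, so the labels do not settle which set holds the Cdx2 allele, and neutral names are used. Both sets carry the β-catenin allele, a gain-of-function allele per the design text, in which 1 copy is mutant. The genotype of the controls beyond that word, the Cre driver, the cells in which it acts, the inducing agent, and the age, sex and number of animals are not given by the sources read. Nothing in the labels says that the libraries of a group came from separate animals, so p-values measure only the spread between these libraries.

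MYC, MYCN and MYCL pair with MAX on DNA and drive growth and metabolism genes. D cyclins bind CDK4 or CDK6 at the start of the cell cycle, and the complexes phosphorylate the retinoblastoma protein, which releases E2F factors for entry into S phase, while p21 (Cdkn1a) and p27 (Cdkn1b) bind these complexes and inhibit cyclin-CDK2. In the intestine β-catenin and its TCF partners keep crypt cells dividing, and Myc and Ccnd1 are among the genes long described as WNT targets.

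The libraries were read as a whole first. Summed FPKM ran from 624923 to 755802, and 1 FPKM on a transcript of 1 kilobase stood for 17.0 to 19.2 fragments, judged from the spacing of the lowest values. On the first principal component, with 43.5% of the variance, 5 mutant libraries had scores of 2.57 to 30.0 and controls scores of -22.7 to -21.6. The score of set B on day 9, called library B9 from here on, was -19.1, near the controls. Library B9 was also the only one of 9 with Y-linked expression, a sum of 41.7 FPKM over 4 genes. Xist, expressed from the inactive X chromosome, was at 0.10 FPKM there and at 27.04 to 39.4 in the other 8, so its sex pattern differed from theirs, and whether it carries the right label was not tested. Differences and calls of the 10 genes are given with and without it, as are the counts of the pathway lists where they change. Library B9 was singled out from these same values, so the fits without it are not free of that choice. The 9 epithelial markers summed to 5474 to 6191 FPKM in control and to 5481 to 6398 in the mutants, and endothelial markers to at most 0.696 FPKM anywhere. Markers of T cells, Paneth cells, fibroblasts, macrophages and absorptive enterocytes are given further below.

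Of the 10 genes, Ccnd2 and Mycn stood apart: each lay below every control library in all 6 mutant libraries, a pattern shown by 7.37% of all genes tested. No member lay above every control in all 6 (5.19% of genes did) or in the 5 other than library B9 (9.9%). Ccnd2 averaged 73.9 ± 1.57 FPKM in control (SD, n = 3) and 29.7 ± 14.1 in the mutants (SD, n = 6), and Mycn 2.69 ± 0.468 and 1.03 ± 0.473. For the other 8 genes the control and mutant ranges overlapped. In bulk RNA, fewer cells of a type and less RNA per cell cannot be told apart. No member passed an adjusted p of 0.05 (limma, Benjamini-Hochberg over all genes) with all 9 libraries in both mutant sets against control, where 1.16% of all genes did. Without library B9, Ccnd2 and Mycn passed, both lower, where 8.29% of all genes passed and 3.64% passed as lower. At an unadjusted p under 0.05, 3 of the 10 members stood in the first comparison, against 21% of all genes. The median log2 difference of the 10 members was -0.14, against -0.0017 over all genes. Of the 10, 7 were negative, against 50.3% of all genes.

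**Figure D1:**
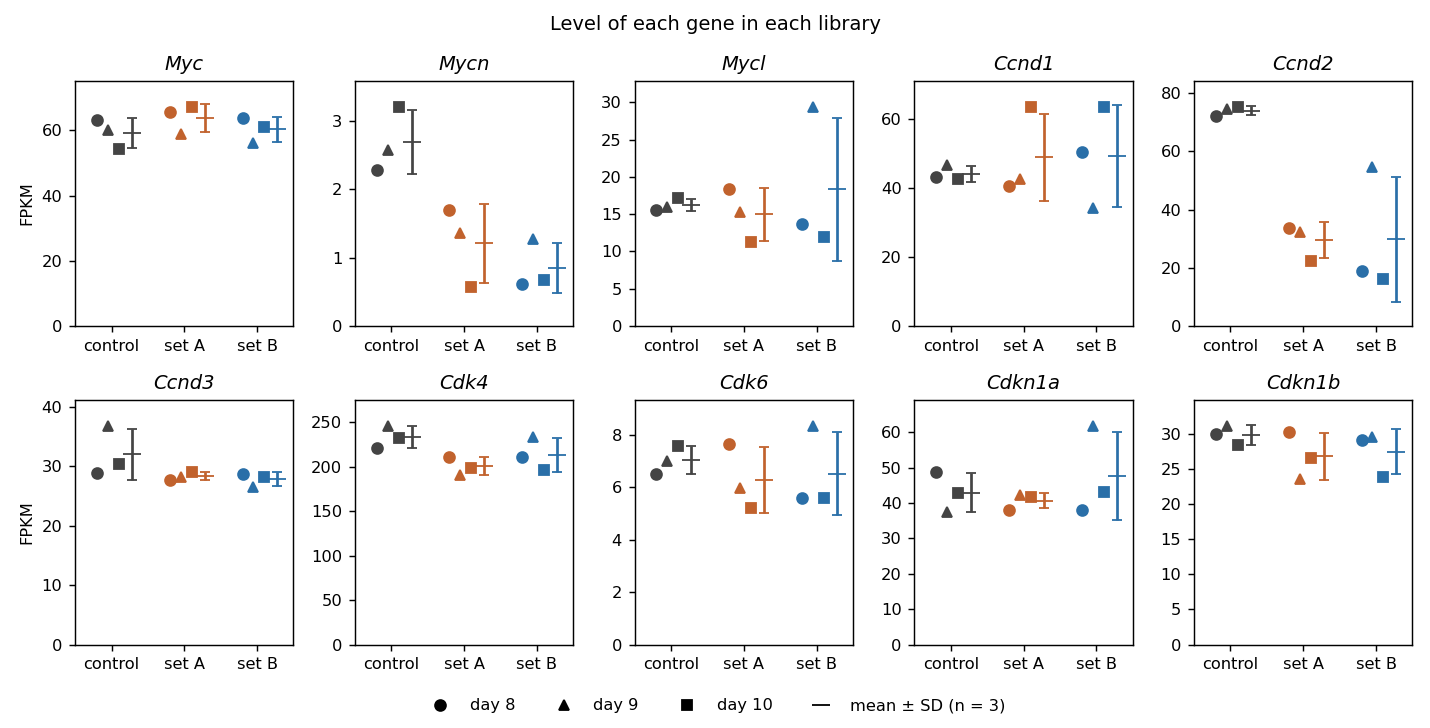
Level of each of the 10 genes in FPKM (vertical axis, from 0) in each library of control, set A and set B. Circles, triangles and squares are days 8, 9 and 10, and the bars are the mean ± SD of 3 libraries. Ccnd2 in set B spans 16.1 to 54.5 FPKM, with day 9 highest, and every mutant value of Ccnd2 and Mycn lies under the controls.

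By level, the control libraries ranked Cdk4 first at 233 ± 12.5 FPKM (SD, n = 3), followed by Ccnd2 at 73.9 ± 1.57, Myc at 59.2 ± 4.55, Ccnd1 at 44.0 ± 2.19 and Cdkn1a at 42.9 ± 5.63. Ccnd3 at 32.0 ± 4.25, Cdkn1b at 29.8 ± 1.4, Mycl at 16.2 ± 0.816, Cdk6 at 7.03 ± 0.528 and Mycn at 2.69 ± 0.468 completed the order. The means of the neighbours Ccnd1 and Cdkn1a differed by less than the SD of Cdkn1a, and those of Ccnd3 and Cdkn1b by less than the SD of Ccnd3. In the mutant means Ccnd2, at 29.7 FPKM, stood below Ccnd1 at 49.1 and Cdkn1a at 44.2.

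Myc, which encodes the most studied MYC protein, was at 63.2, 60.2 and 54.2 FPKM in control on days 8, 9 and 10. Set A had 65.5, 59.0 and 67.1, and set B had 63.8, 56.0 and 61.1. The groups overlapped, and 3 of 6 mutant libraries were above every control. The difference of both sets from control was 0.07 ± 0.07 (SE) on the log2(FPKM + 1) scale (95% interval -0.10 to 0.24, adjusted p = 0.641), which is a fold of 0.931 to 1.18. Without library B9 it was 0.09 (adjusted p = 0.458). Set A alone gave 0.11 ± 0.09 (adjusted p = 0.557) against control and set B alone 0.026 ± 0.086 (adjusted p = 0.904), or 0.08 (adjusted p = 0.644) without library B9.

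Mycn, a MYC paralog best known from embryonic tissues and neuroblastoma, was at 2.28, 2.58 and 3.20 FPKM in control. Set A had 1.69, 1.36 and 0.576, and set B had 0.608, 1.28 and 0.667. Every mutant library lay below every control, and library B9 lay with the other mutants. The difference was -0.89 ± 0.19 on the log2 scale (95% interval -1.33 to -0.44, adjusted p = 0.0712) with all libraries. It was -0.97 ± 0.18 (adjusted p = 0.0255) without that library, so Mycn fell in that fit. The sets taken singly gave -0.77 (set A, adjusted p = 0.170) and -1.01 (set B, adjusted p = 0.10) against control. With library B9 left out these were -0.77 (adjusted p = 0.0972) and -1.16 (adjusted p = 0.0367). Mycn was the lowest of the 10 genes, resting on about 26.2 to 157 fragments per library if its longest coding transcript is counted, and the pseudocount of 1 understates its change.

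Mycl, the third MYC paralog, was at 15.6, 16.0 and 17.2 FPKM in control, with 18.4, 15.3 and 11.3 for set A and 13.7, 29.4 and 12.0 for set B. The highest value was in library B9, every other library being at 18.4 or lower. Its difference was -0.04 ± 0.27 on the log2 scale (95% interval -0.65 to 0.58, adjusted p = 0.953), and -0.23 (adjusted p = 0.335) without that library. Of the summed level of the 3 family members, Myc was 72.7 to 77.9% in control. It was 64.6% in library B9 and 76.5 to 84.9% in the other mutants.

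Promoter sequence was available for 7 of the 10 genes, in 9 windows of the 250 bases before a start site, from RefSeq on build GRCm38.p6. Myc, Ccnd1 and Ccnd2 had no entry. The submitters' processing notes name mm9 for the deposited values, and no coordinates of the deposited table were used. Motifs were searched on both strands: the E-box CACGTG bound by MYC and MAX, which reads the same on either strand, the TCF/LEF letters CTTTGAA and CTTTGAT, and the E2F letters TTTGGCGC and TTTCCCGC. The windows shown are that of the lowest and that of the highest expressed gene, because they hold more matches than the others. Capitals mark the matches, which do not overlap one another, and each sequence reads 5′ to 3′ on the gene's strand.
Mycn, chr12:12941837-12942086, minus strand: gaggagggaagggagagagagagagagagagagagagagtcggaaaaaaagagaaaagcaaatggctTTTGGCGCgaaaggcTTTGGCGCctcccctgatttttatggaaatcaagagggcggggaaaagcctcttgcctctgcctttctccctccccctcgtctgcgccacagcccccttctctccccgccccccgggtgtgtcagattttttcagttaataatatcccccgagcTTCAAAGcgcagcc
Cdk4, chr10:127063285-127063534, plus strand: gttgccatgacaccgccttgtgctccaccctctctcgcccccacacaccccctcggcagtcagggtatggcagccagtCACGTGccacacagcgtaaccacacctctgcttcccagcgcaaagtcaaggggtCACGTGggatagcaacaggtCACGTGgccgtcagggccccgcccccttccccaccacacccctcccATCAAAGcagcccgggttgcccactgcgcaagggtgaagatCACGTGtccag
The Mycn window holds 2 E2F matches, 183 and 168 bases before the start, and 1 TCF/LEF match 14 bases before it, and no E-box. The Cdk4 window holds 4 E-boxes, 172, 118, 98 and 11 bases before the start, and 1 TCF/LEF match 52 bases before it. Of 32851 mouse promoter windows of the same length, 6.02% hold an E-box, 0.0213% hold 4 or more, 7.48% hold a TCF/LEF match and 1.30% an E2F match. The Cdk6 window holds 1 E-box, and the windows of Mycl, Cdkn1a, Cdkn1b and Ccnd3 hold none of these letters. These matches describe the sequence in these windows, and binding was not measured.

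Ccnd2 encodes cyclin D2, a regulatory subunit of CDK4 and CDK6. Its level was 72.2, 74.5 and 75.1 FPKM in control on days 8, 9 and 10, the narrowest control range among the 3 D cyclins. Set A had 33.7, 32.4 and 22.5, and set B had 18.8, 54.5 and 16.1. Every mutant library lay below every control, and library B9 lay nearest to them.

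The mean over 6 mutant libraries was 0.401 times the control mean. The log2 difference was -1.41 ± 0.35 (95% interval -2.21 to -0.60, adjusted p = 0.0874) with all 9 libraries, which missed the threshold. Without library B9, the 5 mutant libraries ran from 16.1 to 33.7 FPKM (24.7 ± 7.97, SD, n = 5). In that fit Ccnd2 fell by 1.67 ± 0.13 on the log2 scale (95% interval -1.98 to -1.37, adjusted p = 0.00266). Library B9 held the mutant value nearest to the controls, so leaving it out enlarges the difference and narrows the spread by itself. Without any other single library the adjusted p of Ccnd2 stayed above 0.05.

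Taken singly, set A differed from control in Ccnd2 by -1.32 ± 0.40 (adjusted p = 0.188) and set B by -1.49 ± 0.40 (adjusted p = 0.150). No member passed in either comparison, where 0.215% and 0.628% of all genes passed. With library B9 left out, the 3 libraries of set A gave -1.32 (adjusted p = 0.0223) and the 2 remaining libraries of set B -2.02 ± 0.16 (adjusted p = 0.00397). In those fits 1 of 10 members passed as lower in set A (0.392% of all genes did, and 1.05% passed in either direction) and 2 of 10 in set B (1.42% lower, 4.03% in either direction). Set B minus set A, the test of the difference between the sets, gave -0.18 ± 0.40 (95% interval -1.11 to 0.75) for Ccnd2. No member and 0% of genes passed in that comparison, in which 376 genes (3.11%) had an unadjusted p under 0.05. Without library B9 the Ccnd2 difference between the sets was -0.71 ± 0.16 (adjusted p = 0.806). All comparisons with control share the 3 control libraries.

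Ccnd1 encodes cyclin D1. It was at 43.1, 46.5 and 42.5 FPKM in control, with 40.7, 42.5 and 63.3 for set A and 50.4, 34.0 and 63.3 for set B. Both day-10 mutant libraries were at 63.3, where the day-10 control was at 42.5, and library B9 was the lowest of 9. The groups overlapped, and the SD was 2.19 in control and 12.2 over 6 mutant libraries. The difference was 0.12 ± 0.20 on the log2 scale (95% interval -0.35 to 0.58, adjusted p = 0.778), or 0.24 (adjusted p = 0.357) without library B9. Set A alone gave 0.12 ± 0.23 (95% interval -0.42 to 0.66) and set B alone 0.12 ± 0.23 (95% interval -0.42 to 0.66), the latter being 0.35 (adjusted p = 0.299) without library B9.

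Ccnd3, which encodes cyclin D3, was at 28.8, 36.8 and 30.3 FPKM in control, with 27.8, 28.2 and 29.1 for set A and 28.8, 26.6 and 28.3 for set B. Mutant values lay within 26.6 to 29.1 FPKM, and 5 of 6 were below every control. The difference was -0.17 ± 0.08 on the log2 scale (95% interval -0.35 to 0.0054, adjusted p = 0.252), and -0.16 (adjusted p = 0.262) without library B9.

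The makeup of the D cyclins differed between libraries. Ccnd2 made up 50.1, 47.2 and 50.8% of the summed D cyclin level in control, with 33.0, 31.4 and 19.6% for set A and 19.2, 47.4 and 15.0% for set B. Library B9 lay inside the control range and the other 5 mutant libraries below it. The Ccnd2 to Ccnd1 ratio was 1.60 to 1.77 in control. Set A had 0.355 to 0.829, and set B had 0.373, 1.60 and 0.255. The sum of the 3 genes was 144 to 158 FPKM in control and 98.0 to 115.1 in the mutants, with no overlap.

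**Figure D2:**
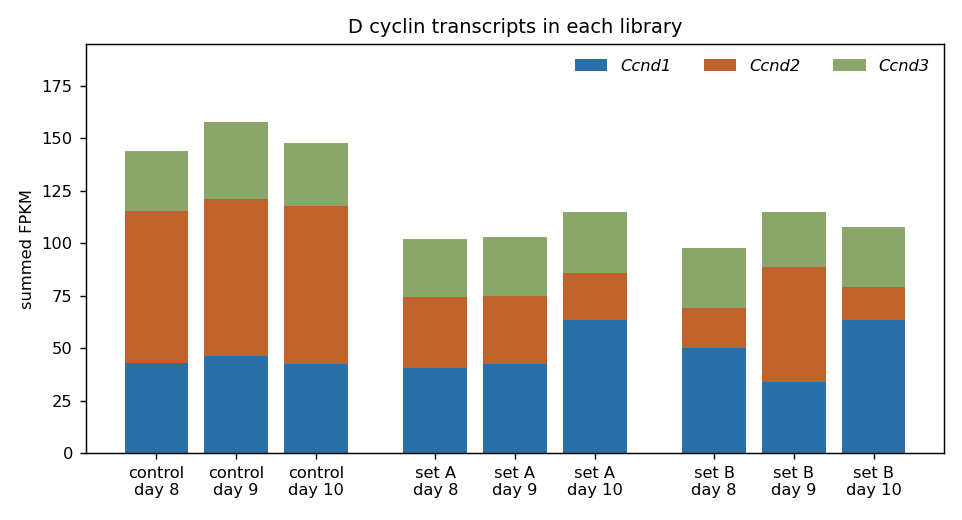
Level of Ccnd1, Ccnd2 and Ccnd3 in FPKM, stacked for each library (vertical axis, from 0), for control, set A and set B on days 8, 9 and 10. Ccnd2 is near 74 FPKM in every control library, and in the mutants it is 16.1 to 33.7 except in library B9 at 54.5.

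Cdk4, which encodes a partner kinase of the D cyclins and made up about 97% of the summed Cdk4 and Cdk6 transcript level, was at 221, 246 and 232 FPKM in control. Set A had 211, 191 and 199, and set B had 210, 233 and 196. In the mutants it was below every control in 5 of 6 libraries, with library B9 within the control range. The difference was -0.17 ± 0.07 on the log2 scale (95% interval -0.34 to -0.0043, adjusted p = 0.228), and -0.21 (adjusted p = 0.0917) without that library, when 3 of 10 members lay below every control in all 5 libraries, as 10.3% of genes did. Set A alone gave -0.22 (adjusted p = 0.261) and set B alone -0.13 (adjusted p = 0.477), the latter being -0.20 (adjusted p = 0.191) without library B9.

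Cdk6 was at 6.50, 7.01 and 7.56 FPKM in control, with 7.65, 5.96 and 5.20 for set A and 5.6, 8.34 and 5.59 for set B. The ranges overlapped, and library B9 was the highest of 9. The difference was -0.13 ± 0.14 on the log2 scale (95% interval -0.46 to 0.19, adjusted p = 0.626), and -0.22 (adjusted p = 0.247) without that library.

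Cdkn1a, the p21 gene, a target of p53, was at 48.6, 37.4 and 42.9 FPKM in control, with 38.1, 42.3 and 41.6 for set A and 38.1, 61.8 and 43.2 for set B. A single mutant library lay above every control, library B9. The difference was 0.03 ± 0.15 on the log2 scale (95% interval -0.31 to 0.36, adjusted p = 0.931), and -0.07 (adjusted p = 0.673) without that library. The sum of the 9 absorptive enterocyte markers was also highest in that library, 9342 FPKM against 2988 to 5137 in the other 5 mutants and 3749 to 8416 in control. Over all libraries not every marker did so: Apoa1, Lct, Sis, Slc5a1 and Anpep were each highest in a control library. Among the mutants alone, Apoa1, Lct and Anpep were highest in library B9, and Sis and Slc5a1 were not. The part of enterocytes in the Cdkn1a level of library B9 was not tested.

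Cdkn1b, the p27 gene, was at 30.0, 31.2 and 28.4 FPKM in control, with 30.2, 23.6 and 26.6 for set A and 29.1, 29.5 and 23.8 for set B. Control and mutant ranges overlapped, with 3 of 6 mutant libraries below every control. The difference was -0.14 ± 0.10 on the log2 scale (95% interval -0.36 to 0.08, adjusted p = 0.446), and -0.16 (adjusted p = 0.318) without library B9.

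**Figure D3:**
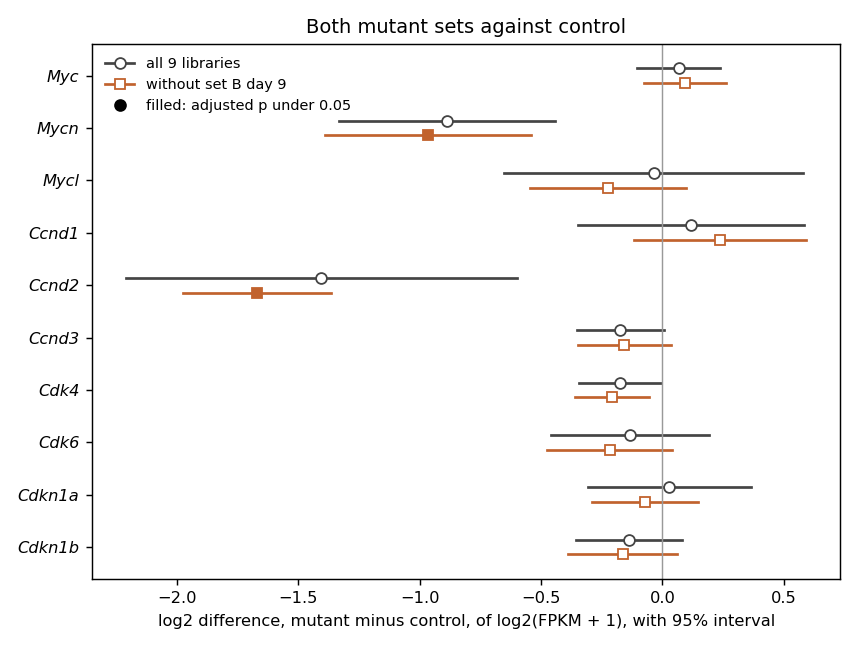
Log2 difference of log2(FPKM + 1) from control for each of the 10 genes (horizontal axis) with its 95% interval, for both mutant sets with all 9 libraries and without library B9. The Ccnd2 interval narrows from -2.21 to -0.60 to -1.98 to -1.37 without that library, and the Myc interval spans 0 in both.

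Markers of other cell populations differed beside Ccnd2 and Mycn. The 10 T cell and intraepithelial lymphocyte markers in the table summed to 80.7, 104 and 60.1 FPKM in control on days 8, 9 and 10, with 74.4, 85.8 and 21.8 for set A and 53.7, 82.4 and 20.5 for set B, and none was at 0 in any library. All 9 tested markers of that list had a negative log2 difference in both sets together, as did 50.3% of all genes, and none passed. Over the 9 libraries, which share days and groups, Pearson's r with this sum was 0.725 for Ccnd2, 0.684 for Mycn and -0.859 for Ccnd1, given as a description. The other members ran from -0.368 (Myc) to 0.670 (Cdk6), with Mycl at 0.654, Cdk4 at 0.586 and Cdkn1b at 0.549. In set A on days 8 and 9 the sum lay inside the control range while Ccnd2 was at 33.7 and 32.4 FPKM. On day 10 both the sum and Ccnd2 were below their control ranges in both sets. The same held for set B on day 8, with a sum of 53.7 and Ccnd2 at 18.8 FPKM. Library B9 had a sum of 82.4, inside the control range, and the highest mutant Ccnd2, 54.5 FPKM. The 8 Paneth cell markers summed to 40844 to 75346 FPKM in control and 13215 to 32998 in the mutants, with no overlap. Of the 8, 5 passed as lower, where 0.645% of all genes did, and 2 had a positive difference. Pla2g2a, the highest of these at 3.60 (adjusted p = 0.182), ran from 93.7 to 8269 FPKM within control and from 2693 to 10178 in the mutants. The 8 fibroblast markers summed to 0.0587 to 0.250 FPKM in control and 0.302 to 8.25 in the mutants, again with no overlap, and 4 of 8 were at 0 in at least 1 library. The 7 macrophage markers summed to 7.14 to 8.42 FPKM in control and 6.87 to 17.0 in the mutants, which overlap. Of the 9 absorptive enterocyte markers 7 had a negative difference and none passed. Without library B9, 1 passed as lower, where 3.64% of all genes did. Among them, Lct was at 138, 50.3 and 48.1 FPKM in control. It was at 98.1 in library B9 and at 2.58 to 21.1 in the other mutants. The part of T cells, Paneth cells, fibroblasts, macrophages and enterocytes in the levels of Ccnd1, Ccnd2 and Mycn was not tested.

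**Figure D4:**
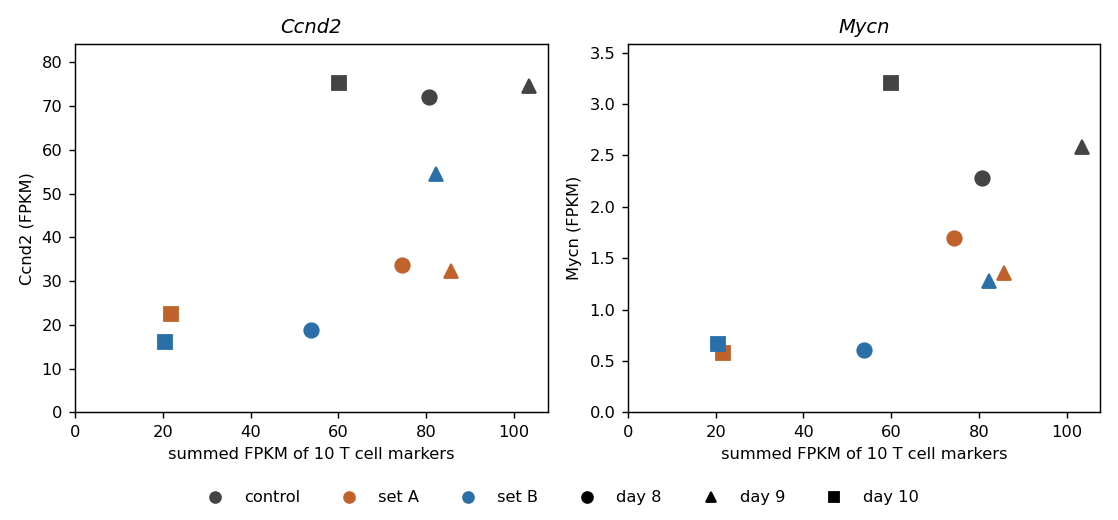
Level of Ccnd2 (left) and Mycn (right) in FPKM (vertical axis, from 0) against the summed FPKM of 10 T cell markers (horizontal axis, from 0) in each of 9 libraries. Both genes are low in the day-10 mutant libraries, where the sum is 20.5 and 21.8. The day-8 and day-9 libraries of set A have sums among those of the controls with Ccnd2 at 33.7 and 32.4 FPKM. Set B has a sum of 53.7 with Ccnd2 at 18.8 on day 8, and of 82.4 with Ccnd2 at 54.5 on day 9. Over the 9 libraries r is 0.725 for Ccnd2 and 0.684 for Mycn.

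Around the 10 genes, lists of pathway genes were read in both sets against control, where 62 genes (0.513%) passed as higher and 78 (0.645%) as lower, or 133 and 36 with libraries rescaled to equal totals. Of 11 tested MYC network partners, none passed, with a median log2 difference of 0.02. Mxd3 had -0.17 in set A alone (adjusted p = 0.565) and -0.51 in set B alone (adjusted p = 0.150), and passed in neither. For both sets it passed in none of 15 alternatives, with differences of -0.42 to -0.28. Mnt, a MAX-binding repressor, had 0.22 (adjusted p = 0.157) and Mlxipl, a glucose-sensing factor, -0.41 (adjusted p = 0.220). Without library B9, when 3.64% of all genes passed as lower, Mlxipl passed as well, at -0.52 (adjusted p = 0.0278). Of 22 MYC target genes 1 passed, Tfrc, the transferrin receptor, which fell by 0.48 ± 0.07 on the log2 scale (adjusted p = 0.0239), from 69.9 ± 1.59 FPKM (SD, n = 3) to 50.01 ± 3.94 (SD, n = 6). The list's median was -0.04, and 15 of 22 were negative, against 50.3% of all genes. Of 8 genes of MYC protein turnover none passed, with a median of -0.05. Cip2a, an inhibitor of the phosphatase PP2A, had -0.29 (adjusted p = 0.0882).

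Of 20 other G1/S genes 2 passed, both lower. Ccne2, cyclin E2, was at 4.38, 4.28 and 4.55 FPKM in control and at 2.34 to 3.35 in the mutants with a median of 2.73. It fell by 0.52 ± 0.09 (adjusted p = 0.0426). E2f1, an E2F factor that drives S phase genes, was at 8.64, 11.2 and 10.4 FPKM in control and at 6.16 to 7.48 in the mutants with a median of 6.50, and fell by 0.52 ± 0.09 (adjusted p = 0.0442). The groups did not overlap for either gene, and 7.37% of all genes tested had all 6 mutant libraries below every control. Both genes were named for a small p in these data, so this lack of overlap adds no support. Rbl1, the p107 pocket protein, had -0.28 (adjusted p = 0.0539). Without library B9, when 3.64% of all genes passed as lower, 5 of this list did. The additional ones were Ccne1 (adjusted p = 0.0427), Rbl1 (0.0305) and Skp2 (0.0315). The median of the list was -0.09.

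Of 6 other CDK inhibitors 5 were tested and 1 passed. Cdkn2c, the p18 inhibitor of CDK4 and CDK6, was at 16.8, 17.2 and 16.8 FPKM in control and at 9.26 to 12.7 in the mutants with a median of 10.6. It fell by 0.61 ± 0.10 (adjusted p = 0.0417). No mutant library reached a control, a pattern shown by 7.37% of all genes tested. Cdkn2d had -0.31 (adjusted p = 0.117) and Cdkn3, a phosphatase that acts on CDK2, -0.33 (adjusted p = 0.165). Cdkn2a was the member that did not pass the filter.

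All 14 proliferation genes had a negative difference, as did 50.3% of all genes. Their median was -0.30, and none passed with all 9 libraries. Mcm6, part of the replicative helicase, had -0.43 (adjusted p = 0.0688). Without library B9, where 3.64% of all genes passed as lower, 6 did: Pcna, Mcm2, Mcm3, Mcm6, Ccna2 and Aurkb. Of 17 p53 pathway genes 14 were tested and none passed, with a median of 0.06. Trp53 itself had -0.20 (adjusted p = 0.171).

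Of 15 immediate early and dissociation stress genes 13 were tested and 2 passed, both higher, with a median of 0.39. Junb, an AP-1 subunit, rose by 0.80 ± 0.09 (adjusted p = 0.0133), from 48.2 ± 5.40 FPKM (SD, n = 3) to 84.4 ± 7.01 (SD, n = 6). Ier3, an early response gene, rose by 0.60 ± 0.10 (adjusted p = 0.0415), and Jun had 0.69 (adjusted p = 0.0529). Without library B9, 4 passed as higher, with Jun (adjusted p = 0.0267) and Dusp1 (0.0389) added, where 4.65% of all genes passed as higher. Genes of this list are known to respond to tissue handling, and their part in the levels above was not tested.

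These calls depended on single libraries and settings. With equal totals Tfrc, Ccne2, E2f1 and Cdkn2c did not pass (adjusted p 0.0731 to 0.116), and with no filter Ccne2, E2f1, Cdkn2c and Ier3 did not (0.0597 to 0.0680). Tfrc, Ccne2, E2f1, Cdkn2c and Ier3 no longer passed when control day 8, 9 or 10 was left out (adjusted p 0.0524 to 0.177), and Junb when control day 9 or 10 was (0.0617 and 0.0634). Without the day-10 library of set A or of set B those 5 genes did not pass (0.0553 to 0.106). Ccne2 and Ier3 also did not pass without set A day 8, Tfrc, Ccne2 and E2f1 without set A day 9, and Ccne2, E2f1, Cdkn2c and Ier3 without set B day 8 (0.0501 to 0.0949 in these cases).

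**Figure D5:**
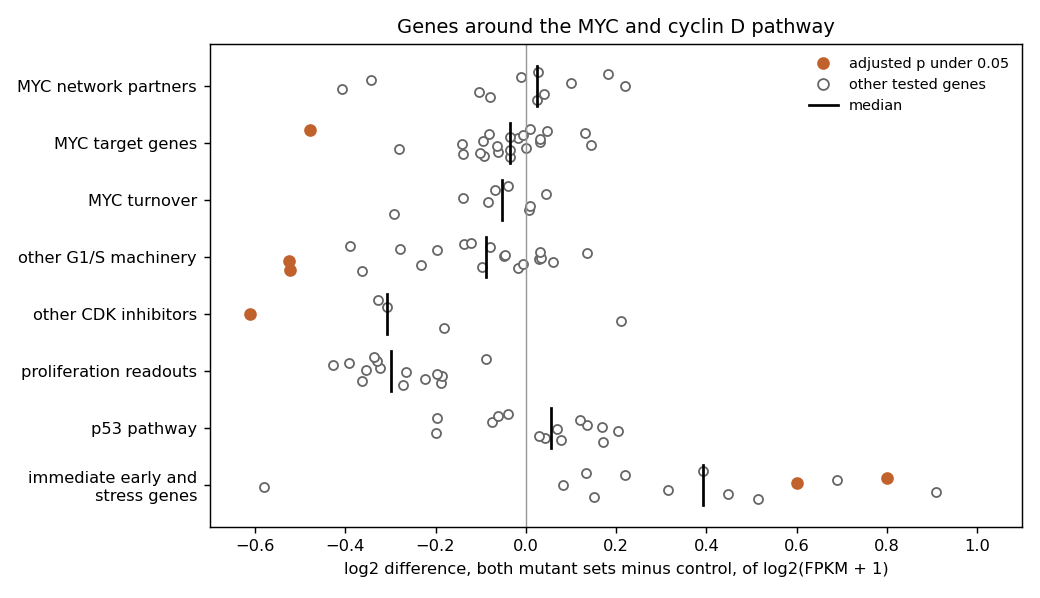
Log2 difference of log2(FPKM + 1), both mutant sets minus control (horizontal axis), for each tested gene of 8 pathway lists, with the median of each list as a line. Filled points passed an adjusted p of 0.05. Proliferation genes all lie below 0, with a median of -0.30, and immediate early and stress genes have the highest median, 0.39.

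The genes most alike in pattern were found by Pearson's r of log2(FPKM + 1) over the 9 libraries among 7807 genes whose mean log2 level was 3 or more. For Ccnd2 they were Atxn7l3b (r = 0.987), Ormdl1 (0.970) and Scin (0.967), and for Ccnd1 Arfip1 (0.971), Actr2 (0.971) and Rpe (0.963). Sort1 (0.958), Ctdsp2 (0.957) and Erbb3 (0.934) were most like Myc, and Gm10768 (0.978), Phyh (0.970) and Dhrs1 (0.968) most like Cdkn1a. The points share libraries, days and groups, so these values describe the pattern and are not tests.

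Some of these levels could share fragments with an overlapping gene, since the labels' protocol names no step that marks strand. Ccnd1 shares 818 bases on the opposite strand with LTO1, at 8.14 to 9.42 FPKM here, Cdk4 shares 641 with Tspan31 at 72.0 to 92.8, and Ccnd3 shares 361 with Bysl at 8.96 to 11.04. Ccnd2 shares 193 with 9330179D12Rik, which was at most 0.375 FPKM, and 374 with Gm43126, whose level was not analysed here. Cdk6 shares 320 with Gm17590 and Cdkn1a 262 with AC167363.2, also without a level here. On the same strand, a processed pseudogene matches Ccnd3 at 96.3% over 881 bases and Gm16505 matches Cdk6 at 95.5% over 289. The levels of these 6 genes are uncertain to that extent.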

How the data were processed

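Per the labels' protocols, poly(A) RNA was selected with oligo-dT beads, primed with random hexamers and sequenced as paired ends. Tools named in the submitters' processing notes are kallisto 0.46.1 and DESeq2 1.40.1, with the build mm9 and no roles. Neither annotation nor filters are stated there. The authors deposited 1 table of values for 24930 symbols, read here as FPKM. The unit was inferred from the values, whose smallest steps shrink with transcript length. That pattern does not separate FPKM from other units scaled by length. DESeq2 and other count tests were not run, since the values are not counts.

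Samples were grouped by title, with replicates 1, 2 and 3 being days 8, 9 and 10. Limma 3.58.1 in R 4.3.3 (trend and robust options) was fitted to log2(FPKM + 1) of 12097 genes (1 FPKM or more in 3 or more libraries), all 9 libraries sharing 1 spread, with Benjamini-Hochberg adjustment over all genes and a threshold of 0.05. This scale understates changes of low genes. Intervals are 95%, from the same model. The script was tested on simulated data. The same-day libraries did not deviate together in every pair (correlations -0.236 to 0.615 over 9 pairs), and the day is not a block in the main comparison. Between set A and set B the correlations were -0.018, 0.398 and 0.615 on days 8, 9 and 10, and -0.552 to 0.294 across days. Deviations from a group mean cancel within the group, so the values across days are not separate evidence. Going by the same-day values, mutant libraries of the same day may not be independent, and the day as a block is given as an alternative.

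The members and the gene lists were chosen with earlier results of these data known. Genes named from a list are those with the smallest p in it, at most 3 per list. Library B9 is set B on day 9 (replicate 2), and it was singled out after its values were seen. Pcna, Mcm2, Aurkb, Ccne1, Skp2, Dusp1, Pla2g2a, Xist and the single enterocyte markers were named after their values were seen. The alternatives were a pseudocount of 0.1, no filter, a stricter filter of 5 FPKM, rescaling to equal totals, limma's library weights, a block for the day, fits without the third group, and fits without each library in turn. Fragments behind a value were estimated from the steps between low values.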

Additional observations from a re-analysis of the deposited data

Results flagged for a closer look

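Cdkn1a was at 61.8 FPKM in library B9 (set B, day 9), apart from the other 5 mutant libraries at 38.1 to 43.2. The gap to the nearest library was 0.784 of the range of the 6, above Dixon's critical value of 0.625. Chance alone flags about 1 in 20 such groups, and each of the 10 genes was looked at in this way. The libraries also mix both sets and all days, so that rate is only a rough guide. Mycl and Cdk6 were also highest in that library, at 29.4 and 8.34 FPKM.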

How the results depend on the processing

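For both sets against control (140 genes) the number of genes passing was 80 with no filter and 1438 with library weights, and leaving out single libraries gave 17 to 995: 36, 18 and 17 without control days 8, 9 and 10, 70 and 55 without set A days 9 and 10, and 45, 995 and 51 without set B days 8, 9 and 10. Rescaling to equal totals changed the split from 62 higher and 78 lower to 133 and 36, that of set A from 15 and 11 to 20 and 8, and that of set B from 47 and 29 to 48 and 15. For set A (26) it was 44 with library weights and 16 with the day as a block, and 3 to 126 leaving out libraries (3 without set A day 9, 126 without set B day 9, 7 to 14 without any other). For set B (76) it was 2035 with weights, 33 with the compared groups alone, and 18 to 483 leaving out libraries (483 without set B day 9, 18 and 23 without its days 10 and 8, 21 to 25 without a control). Set B minus set A (0) gave 2 with a pseudocount of 0.1, 3 with weights and 0 to 2 leaving out libraries. The replicate block, the day, changed no member's call; it gave 97 genes for both sets, 63 for set B and 0 between the sets, and none of the other G1/S genes passed under it.

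Ccnd2 kept its direction in all 15 alternatives for both sets and passed in 2, library weights (adjusted p = 0.0109) and without set B day 9 (0.00266), its adjusted p running to 0.263. Mycn passed in 2 of 14, with no value under the stricter filter, and its low level limits its precision. In set A, Ccnd2 also passed with the compared groups alone (0.0387). Signs reversed for small differences. Mycl was 0.0037 with equal totals and -0.23 to 0.081 leaving out libraries, and Cdkn1a -0.044 with weights and -0.071 to 0.12. Leaving out libraries gave Ccnd1 -0.078 to 0.23 in set A and -0.083 to 0.35 in set B, Myc -0.034 to 0.078 in set B, and Ccnd2 -0.71 to 0.14 between the sets. The cause was not tested.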
